A study of Arabidopsis thaliana with 36 samples.

Results

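The loci described here encode splicing factors and proteins of the spliceosome. They were chosen by their annotation in the deposited table, as loci whose description contains "splicing", "spliceosom", "snRNP" or "small nuclear ribonucleoprotein". The rule used no expression difference. It found 99 loci, of which 90 reached 1 FPKM or more in at least 3 of the 36 libraries, out of 18729 loci in all that did so. The other 9, among them 3 annotated pseudogenes, stayed below that level, and the highest value among them was 1.79 FPKM at AT3G56790. FPKM counts fragments per length of transcript and per size of library. The 90 loci list 158 transcripts, of which 139 passed the same filter.

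The samples were rosette leaves of untreated wild-type Arabidopsis thaliana, accession Col-0, grown at 22 °C in days with 16 h of light followed by 8 h of dark. Leaves aged 35 days after sowing (DAS) were compared with leaves aged 21 DAS, at ZT1, ZT5, ZT9, ZT13, ZT17 and ZT21, where ZT is the number of hours since lights on, so that ZT17 and ZT21 lie in the dark. Each of the 12 groups had 3 libraries of polyadenylated RNA, 18 at each age, and the series asked how ageing alters the daily course of expression. The labels name the third and the fourth leaf and the series text names the third, and neither says how many plants a library holds. The p-values therefore measure the spread between these libraries.

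The spliceosome removes introns from nuclear pre-mRNA and is assembled from the small nuclear ribonucleoproteins (snRNPs) U1, U2, U4, U5 and U6, each an RNA with its own proteins, of which all but U6 carry a ring of Sm proteins. U1 binds the 5′ splice site, U2 and its partners mark the branch point and the 3′ splice site, and a separate set of snRNPs with U11 and U12 serves a rare class of introns. SR proteins, RNA-binding proteins rich in serine and arginine, help choose the sites, and many plant SR genes are themselves alternatively spliced into forms that carry an early stop codon. In Arabidopsis, loss of some splicing factors lengthens the circadian period.

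Libraries held the markers of leaf tissue, with a median of 4824 FPKM of RBCS1A at 35 DAS and 19240.0 FPKM at 21 DAS. The leaf markers RCA and CA1 also had lower medians at 35 DAS, while GLK1 had 331 FPKM at 35 DAS and 205.5 FPKM at 21 DAS. In every library 3 of 4 root epidermis markers and the meristem markers WUS and CLV3 were listed at 0. The meristem marker STM reached 0.543 FPKM at 35 DAS and was 0 at 21 DAS. Among flower markers the highest values were 1.29 FPKM for PI at 35 DAS and 1.56 FPKM for AG at 21 DAS. Deposited FPKM summed to between 829518 and 947688 per library at 35 DAS and between 872504 and 952310 at 21 DAS. The number of reads per library is unknown. A set of 46 photosynthesis loci took a median of 5.54% of the summed FPKM at 35 DAS and 14.9% at 21 DAS, so other loci share a larger remainder at 35 DAS. The median log2 difference over all 18729 loci was 0.39 as deposited and 0.04 after rescaling by the median of ratios, which sets the typical locus equal in all libraries. The main counts of age effects are therefore given on both scales, while some single loci and transcripts have the deposited value only. The part of the photosynthesis loci in these effects was not tested. Fewer cells of a type and less RNA per cell cannot be told apart in these bulk samples. The second ZT13 library at 35 DAS stood apart, with log2 differences from its 2 partners of SD 0.767 and 0.756, against 0.291 for the closest pair of the study. Values without it are given where they differ.

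The alternative splice sites that the transcript results turn on are shown first, read from the RefSeq TAIR10.1 genome at the ends of introns in its transcript models. Each 3′ splice site is written 5′ to 3′ with the last 20 bases of the intron and the first 10 of the exon, and the AG that ends the intron is in capitals. SR30 (AT1G09140, minus strand) uses chr1:2943217-2943246 in SR30.1 and a site upstream, chr1:2943555-2943584, in SR30.2. SR34 (AT1G02840, plus strand) uses chr1:629268-629297 in SR34.1 and chr1:628915-628944 in SR34.2. U2AF65A (AT4G36690, minus strand) uses chr4:17294421-17294450 in U2AF65A.1 and chr4:17294594-17294623 in U2AF65A.3.
SR30.1 3′ site: ggtttttggtcttgctgcAGgtcccaatca
SR30.2 3′ site: ttgcgttgtttgttttctAGatctggctca
SR34.1 3′ site: cttttcttggacttttgcAGatcgcgttca
SR34.2 3′ site: ctaatttacattgctgctAGatggataaca
U2AF65A.1 3′ site: ctttaactcttaaaatgcAGgtgctttgac
U2AF65A.3 3′ site: ttggttgtgctgttttacAGccttttgcta

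In all 3 pairs the upstream site lengthens the exon, and the reading frame then meets a stop codon early. The stop codon is in capitals in these windows of the last 9 coding bases and the stop.
SR30.2 stop: gattggatcTAG
SR34.2 stop: ggatttctgTAA
U2AF65A.3 stop: caggtgcttTGA
In the RefSeq models, SR30.2 encodes 256 residues against 268 in SR30.1, SR34.2 encodes 285 against 303 in SR34.1, and U2AF65A.3 encodes 565 against 573 in U2AF65A.1.

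A separate group of loci gains a whole exon inside an intron. SR45A.2 (AT1G07350, minus strand) includes an exon of 96 bases at chr1:2258750-2258845 that SR45A.1 skips. The RefSeq model of SR45A.2 starts at a codon downstream of the start of SR45A.1 and stops within the added exon, and it encodes 129 residues, against 382 in SR45A.1. RS40.3 (AT4G25500, plus strand) includes an exon of 257 bases at chr4:13025600-13025856, and RS41.4 (AT5G52040, plus strand) one of 326 bases at chr5:21131562-21131887. In both models the annotated coding region starts in the added exon. It encodes 317 residues in RS40.3 against 350 in RS40.1, and 324 in RS41.4 against 356 in RS41.1. Both models also hold the start codon of RS40.1 or RS41.1 upstream of the added exon, and the reading frame from there was not followed. Windows over the 3′ site before each exon have the AG in capitals, and windows of 10 exon bases and 20 intron bases after it have the GT in capitals.
SR45A.2 exon, 3′ site: tgcttgtttccactttcaAGtttctgtggc
SR45A.2 exon, 5′ site: gacatttaggGTtgtatgccctgcatttct
RS40.3 exon, 3′ site: ccgcattttctttgacgcAGgatgtgtttg
RS40.3 exon, 5′ site: ataatgcaagGTctgtaactgcttcactgg
RS41.4 exon, 3′ site: aacatttgattttggcgcAGgatttgtttc
RS41.4 exon, 5′ site: ataatgcaagGTctgtaaaactacttatag
The paralogs RS40 and RS41 had identical bases at 19 of 30 positions of the 3′ windows and at 20 of 30 positions of the 5′ windows.

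Transcripts of splicing factors took a larger part of the summed FPKM, as deposited, in 35 DAS leaves than in 21 DAS leaves. The 90 loci together made up 0.308% of the summed FPKM at 35 DAS (median of 18 libraries, 0.243 to 0.401%) and 0.191% at 21 DAS (0.153 to 0.227%), and no 35 DAS library fell within the 21 DAS range. At 35 DAS the mean share was 0.284, 0.253, 0.315, 0.308, 0.321 and 0.364% from ZT1 to ZT21, and at 21 DAS it was 0.162, 0.156, 0.169, 0.220, 0.219 and 0.214%, with SDs over 3 libraries of 0.00242 to 0.0370 percentage points. The share was lowest at ZT5 at both ages and highest at ZT21 at 35 DAS. At 21 DAS the means of ZT13, ZT17 and ZT21 lay close together above the other 3.

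Averaged over the 6 times, 83 of the 90 loci were higher at 35 DAS at an adjusted p under 0.05, where 64.5% of all loci tested were called higher. CRS2A alone was lower, where 23.2% of all loci were. After rescaling 60 were higher (42.5% of all loci) and 15 lower (38.4%), and all 60 were also higher as deposited. The median log2 difference of the 90 loci was 0.57 as deposited and 0.18 rescaled, beside 0.39 and 0.04 over all loci. Between single loci 9 changed direction with the scale, higher on the deposited scale and lower on the other. The sign was the same at all 6 times for 70 of the 90, and 46 were called at every time. The median level of the 90 loci over all libraries was 21.9 FPKM, against 12.5 FPKM over all loci kept.

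**Figure D1:**
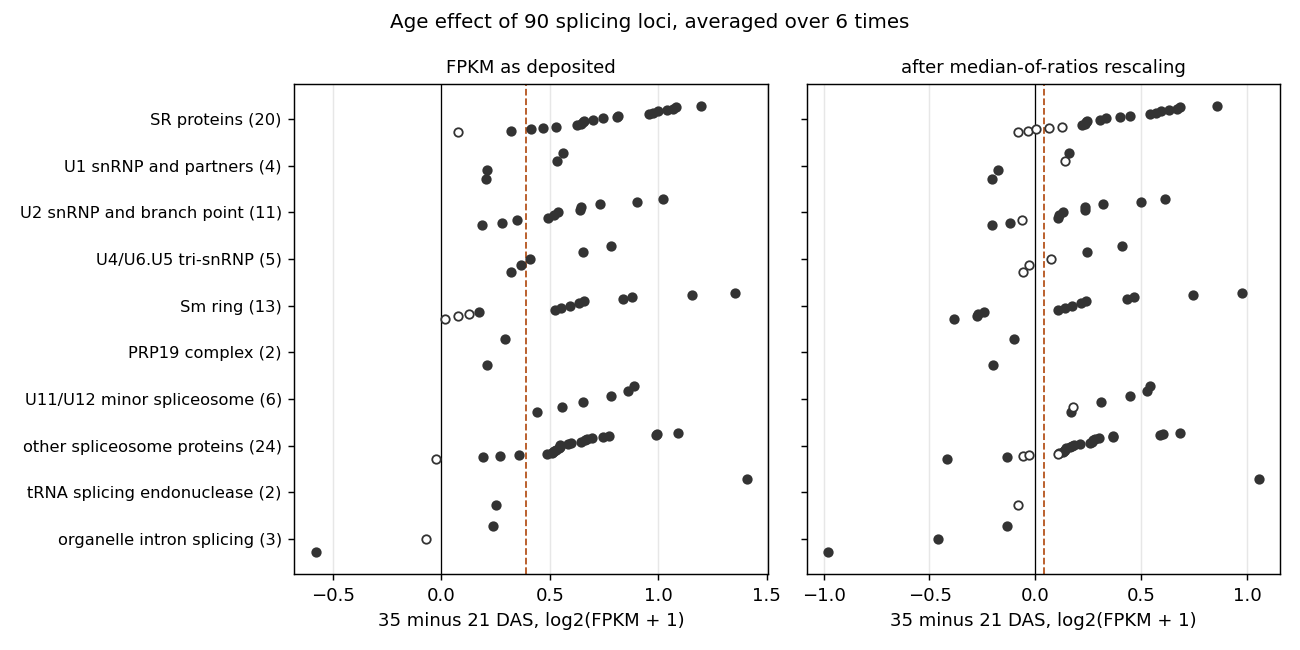
Difference between 35 and 21 DAS leaves, in log2(FPKM + 1) averaged over 6 times, for each of the 90 splicing loci grouped by role (number of loci in brackets), as deposited on the left and after median-of-ratios rescaling on the right. Filled points passed an adjusted p of 0.05, open points did not, and the dashed line is the median over all 18729 loci (0.39 and 0.04); SR proteins and U11/U12 proteins lie mostly to its right on both scales, and the organelle proteins to its left.

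SR proteins were higher at 35 DAS almost throughout. Of the 20 measured, 19 were called higher and none lower, with a median log2 difference of 0.72, and after rescaling 15 were higher and none lower, with a median of 0.32. SCL28 was the exception at 0.495 FPKM at 35 DAS and 0.377 FPKM at 21 DAS, with a log2 difference of 0.08 ± 0.08 that was not called. SR45 was called higher as deposited at 0.32, and its rescaled difference of -0.08 was not called.

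SR34 and SR30 are counterparts of the human splicing activator SRSF1. SR30 had 36.5, 53.4 and 98.2 FPKM at 35 DAS and 17.2, 24.9 and 37.4 FPKM at 21 DAS (lowest, median and highest of 18 libraries each). Nearly all 35 DAS libraries exceeded the 21 DAS libraries, with an overlap at the top of the younger and the bottom of the older leaves. The log2 difference was 1.04 ± 0.06 (SE, adjusted p = 1.03e-14), and 0.63 after rescaling. SR34 itself had 44.1, 54.8 and 83.6 FPKM at 35 DAS and 26.7, 33.2 and 57.7 FPKM at 21 DAS, a difference of 0.66 ± 0.04 (rescaled 0.24). The paralog SR34B, much less abundant, had 4.47, 7.69 and 14.5 FPKM at 35 DAS and 1.50, 3.03 and 4.56 FPKM at 21 DAS. Its groups overlapped only just, and the difference was 1.20 ± 0.08 (adjusted p = 1.75e-13, rescaled 0.86). SR34A lay at the other end, with 27.6, 35.00 and 45.8 FPKM at 35 DAS and 22.95, 25.8 and 32.4 FPKM at 21 DAS and a difference of 0.41 ± 0.04 that was 0.00 and not called after rescaling.

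The plant RS subfamily, which has a pair of RNA recognition motifs before its arginine- and serine-rich end, was higher in all 4 members. RS40 had 20.6, 49.3 and 75.9 FPKM at 35 DAS and 7.41, 22.9 and 46.7 FPKM at 21 DAS, with wide overlap of the ages. The difference was 1.00 ± 0.05 (adjusted p = 2.19e-16, rescaled 0.60). RS41 had 47.7, 50.5 and 59.6 FPKM at 35 DAS and 21.03, 30.7 and 34.4 FPKM at 21 DAS, and here every 35 DAS library stood above every 21 DAS library. RS31 differed by 0.98 ± 0.06 and the less abundant RS31A by 0.81 ± 0.07, and rescaled values were 0.40 for RS41, 0.57 for RS31 and 0.45 for RS31A.

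Among the zinc knuckle SR proteins, RS2Z33 also separated the ages completely, with 48.7, 60.4 and 77.8 FPKM at 35 DAS and 23.5, 32.1 and 37.6 FPKM at 21 DAS. Its difference was 0.96 ± 0.05 (adjusted p = 4.26e-17, rescaled 0.54), beside 0.75 ± 0.04 for RS2Z32. RS2Z33 overlaps 2 loci on the other strand over 893 bases in all. RSZ21, RSZ22 and RSZ22A, relatives of human SRSF7, differed by 0.70, 0.64 and 0.53, and after rescaling RSZ22A was no longer called (0.12). Of the SC35-like proteins, SCL33 had 18.8, 32.7 and 50.2 FPKM at 35 DAS and 10.2, 15.5 and 22.9 FPKM at 21 DAS, a difference of 1.07 ± 0.06 (rescaled 0.67). SCL30 differed by 0.65 ± 0.04 and SCL30A by 0.47 ± 0.05, of which SCL30A was not called after rescaling (0.06). SC35, the counterpart of human SRSF2, had 23.99, 31.8 and 36.1 FPKM at 35 DAS and 15.4, 19.6 and 26.7 FPKM at 21 DAS, a difference of 0.62 ± 0.05 (rescaled 0.22). SR45A, an SR-like protein, had 20.8, 31.4 and 54.5 FPKM at 35 DAS and 9.80, 12.3 and 30.8 FPKM at 21 DAS. Its difference was 1.08 ± 0.07 (adjusted p = 2.9e-14, rescaled 0.68). SR genes include close paralogs, and how reads shared between copies were assigned is not given in the sources used here.

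Proteins of the U1 snRNP were higher by smaller amounts than the SR proteins. All 4 were called higher as deposited, with a median difference of 0.37, and rescaling left 1 higher and 2 lower, with a median of -0.02. U1-70K, which contacts SR proteins, had 19.7, 28.2 and 39.9 FPKM at 35 DAS and 14.9, 19.1 and 22.8 FPKM at 21 DAS, a difference of 0.56 ± 0.04 (rescaled 0.16). U1A (AT2G47580), which binds a stem loop of the U1 RNA, differed by 0.20 ± 0.04, and it was lower after rescaling at -0.20 (adjusted p = 0.000163). AT4G03120, annotated as U1C, went the same way at 0.21 and -0.18. U1A shares 1034 bases with a locus on the other strand, and whether reads were counted by strand is not stated, so its level is uncertain. Of 8 further U1 proteins and partners outside the 90, chosen from the literature, all 8 were higher, 5 of them also after rescaling. LUC7B, a U1 protein, averaged 14.8 FPKM at 35 DAS and 7.34 FPKM at 21 DAS and differed by 0.91 ± 0.05 (rescaled 0.53), while PRP40A differed by 0.27 ± 0.05 (rescaled -0.09).

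In the U2 snRNP and branch point group all 11 loci were higher as deposited, with a median difference of 0.54, and 8 were higher and 2 lower after rescaling. U2AF, the dimer that reads the pyrimidine tract and the AG of the 3′ splice site, was higher in all 4 of its subunit genes. The small subunit U2AF35B had 31.2, 46.9 and 112 FPKM at 35 DAS and 14.3, 25.6 and 44.5 FPKM at 21 DAS, a difference of 1.02 ± 0.05 (adjusted p = 1.37e-16, rescaled 0.61). U2AF35A differed by 0.73 ± 0.05 (rescaled 0.32). The large subunit U2AF65B had 19.4, 25.9 and 37.03 FPKM at 35 DAS and 10.3, 12.9 and 18.1 FPKM at 21 DAS, and its ages did not overlap. Its difference was 0.90 ± 0.05 (rescaled 0.50), beside 0.64 ± 0.06 (rescaled 0.24) for U2AF65A. U2AF35B overlaps loci on the other strand over 2042 bases in all, so its level too is uncertain.

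The core U2 proteins differed less. U2A' had 35.4, 44.5 and 64.2 FPKM at 35 DAS and 22.5, 33.00 and 43.4 FPKM at 21 DAS, a difference of 0.52 ± 0.04 (rescaled 0.11), and U2B'' differed by 0.35 ± 0.05 (rescaled -0.06, not called). ATO, an Arabidopsis splicing factor needed for gamete development, differed by 0.49 ± 0.05 (rescaled 0.11). AT1G14650, annotated as subunit 1 of splicing factor 3A, differed by 0.28 ± 0.05, and AT5G51300, annotated as related to splicing factors, by 0.19 ± 0.06. Both were lower after rescaling, at -0.12 and -0.20. All 7 further proteins of this group outside the 90 were higher, 3 of them also after rescaling, against 2 lower. PHF5A averaged 44.7 FPKM at 35 DAS and 24.6 FPKM at 21 DAS (0.88 ± 0.06, rescaled 0.47). AT5G12190, annotated as similar to subunit 6 of splicing factor 3B but counted here among the loci placed in no complex, had 33.7, 48.3 and 64.6 FPKM at 35 DAS and 14.3, 20.01 and 36.6 FPKM at 21 DAS, a difference of 1.09 ± 0.06 (adjusted p = 5.97e-16, rescaled 0.68).

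All 5 loci of the U4/U6.U5 tri-snRNP, which brings the catalytic core, were higher as deposited, and 2 stayed called after rescaling. LIS, a U4/U6 protein first known from egg cell mutants, had 8.40, 9.88 and 18.2 FPKM at 35 DAS and 3.70, 5.85 and 8.37 FPKM at 21 DAS, with no overlap of the ages. The difference was 0.78 ± 0.05 (adjusted p = 5.01e-15, rescaled 0.41). SUS2, annotated as a pre-mRNA processing and splicing factor, had 22.8, 41.5 and 77.3 FPKM at 35 DAS and 17.6, 25.3 and 35.1 FPKM at 21 DAS, a difference of 0.65 ± 0.09 (rescaled 0.25). The U5 helicase emb1507 was at 10.97, 21.9 and 40.4 FPKM at 35 DAS and 11.95, 16.02 and 21.2 FPKM at 21 DAS, and its difference of 0.37 ± 0.11 was -0.03 and not called after rescaling. Outside the 90, 6 of 8 further tri-snRNP loci were measured. All 6 were higher as deposited, with 2 higher and 3 lower after rescaling.

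The Sm ring was divided. Of its 13 loci 10 were higher and 3 were not called as deposited, with a median of 0.59, and 9 were higher and 4 lower after rescaling. SNRNP-G, AT3G62840 and RUXF were the most abundant, at medians of 128 FPKM at 35 DAS and 90.7 FPKM at 21 DAS for SNRNP-G, 118 FPKM at 35 DAS and 78.6 FPKM at 21 DAS for AT3G62840 and 111 FPKM at 35 DAS and 70.8 FPKM at 21 DAS for RUXF. AT3G07590 had 9.24, 19.9 and 31.4 FPKM at 35 DAS and 2.68, 6.35 and 13.7 FPKM at 21 DAS, a difference of 1.35 ± 0.09 (adjusted p = 5.17e-14, rescaled 0.98). AT2G47640 had 38.1, 63.4 and 87.2 FPKM at 35 DAS and 13.5, 28.1 and 41.1 FPKM at 21 DAS, a difference of 1.15 ± 0.06 (rescaled 0.74). Both overlap loci on the other strand, AT3G07590 over 719 bases and AT2G47640 over 212.

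SMB stood at the other end of the ring, with 15.4, 24.1 and 33.5 FPKM at 35 DAS and 15.1, 23.05 and 36.2 FPKM at 21 DAS. The ages overlapped almost fully, and the difference of 0.02 ± 0.05 was not called, but it was lower after rescaling at -0.39 (adjusted p = 2.24e-08). AT4G30330 and AT5G44500 were not called as deposited either, at 0.13 and 0.07, and AT3G11500 was called at 0.17. All 3 were lower after rescaling, each between -0.27 and -0.24. The remaining Sm loci SMD3A, SMD3B, AT2G18740 and AT4G02840 differed by 0.84, 0.55, 0.88 and 0.52. The related LSm ring, which binds U6 RNA and, in another form, messenger RNA due for decay, is annotated in other words and lies outside the 90. All 11 of its loci were higher, with a median of 0.66, and 8 were higher and 1 lower after rescaling. LSM3A averaged 60.9 FPKM at 35 DAS and 28.96 FPKM at 21 DAS (1.05 ± 0.06, rescaled 0.63).

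Both loci annotated to the PRP19 complex, which joins the spliceosome as it is activated, rose as deposited and fell after rescaling. MOS4, also known from plant immunity, differed by 0.21 ± 0.04 (rescaled -0.20) and AT3G18790 by 0.29 ± 0.04 (rescaled -0.10). Of 10 further loci of the complex, 9 were higher as deposited and 5 after rescaling, against 3 lower after rescaling. MAC3A and MAC3B, paralogs of the ubiquitin ligase PRP19, are an example. MAC3B averaged 65.6 FPKM at 35 DAS and 37.2 FPKM at 21 DAS (0.81 ± 0.05, rescaled 0.39). MAC3A averaged 26.4 FPKM at 35 DAS and 25.9 FPKM at 21 DAS (0.04 ± 0.04, not called). After rescaling MAC3A was called lower at -0.37.

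The U11/U12 minor spliceosome was low in level and higher at 35 DAS in all 6 proteins. Their median difference was 0.72 as deposited and 0.38 rescaled, with 5 of 6 called after rescaling. SNRNP31 had 5.32, 6.22 and 7.51 FPKM at 35 DAS and 2.08, 3.63 and 5.18 FPKM at 21 DAS, and the ages did not overlap (difference 0.65 ± 0.05, adjusted p = 2.27e-12). SNRNP35 had 4.37, 7.44 and 11.3 FPKM at 35 DAS and 1.78, 3.73 and 6.97 FPKM at 21 DAS (0.89 ± 0.08) and SNRNP25 had 3.26, 7.82 and 14.02 FPKM at 35 DAS and 0.639, 3.78 and 7.39 FPKM at 21 DAS (0.86 ± 0.08). SNRNP59 differed by 0.78 ± 0.06 and SNRNP65 by 0.56 ± 0.09. SNRNP48 was the lowest of them at 2.12 FPKM at 35 DAS and 1.35 FPKM at 21 DAS, with a difference of 0.44 ± 0.08. SNRNP65 was not called after rescaling, at 0.18. SNRNP59 overlaps an other-strand locus over 1718 bases and SNRNP31 over 1083 bases, the whole length of its model, so their levels too are uncertain. SNRNP25 overlaps a locus on its own strand.

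Of 24 loci placed in no complex, 23 were higher as deposited and 19 after rescaling, against 2 lower. SMP1, a counterpart of the yeast second-step factor Slu7, had 15.7, 28.5 and 56.9 FPKM at 35 DAS and 12.2, 16.7 and 21.4 FPKM at 21 DAS, a difference of 0.77 ± 0.07 (rescaled 0.37), and its paralog SMP2 differed by 0.58 ± 0.05. AT4G36980, which RefSeq names a kinase-associating SR-rich protein, had 12.2, 19.9 and 39.9 FPKM at 35 DAS and 6.61, 9.40 and 13.4 FPKM at 21 DAS (1.00 ± 0.09, rescaled 0.60). AT3G24730, annotated as a thioredoxin-like U5 protein, differed by 0.99 ± 0.08. Smaller differences that held on both scales were those of AT5G38600 (0.51 ± 0.04), AT2G16940 (0.52 ± 0.05) and AT2G29210 (0.53 ± 0.05). AT1G06960, annotated as a second U2B'', was not called as deposited at -0.02 and was lower after rescaling at -0.42, whereas its paralog U2B'' was called higher at 0.35.

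The annotation rule also took in proteins that splice other RNAs. SEN1, a subunit of the endonuclease that cuts introns from tRNA, had the largest difference of the 90 loci. It had 5.96, 11.2 and 17.04 FPKM at 35 DAS and 1.28, 3.92 and 5.11 FPKM at 21 DAS, and no 35 DAS library fell as low as the highest 21 DAS library. The difference was 1.41 ± 0.11 (adjusted p = 9.64e-13, rescaled 1.06). The second subunit gene SEN2 differed by 0.25 ± 0.08, which was not called after rescaling (-0.08). SEN1 overlaps 2 loci on the other strand over 405 bases.

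The 3 loci for chloroplast intron splicing had a median difference of -0.07 as deposited and -0.46 rescaled. CRS2A, which with its partners splices group II introns of the chloroplast, had 10.9, 15.9 and 22.5 FPKM at 35 DAS and 20.4, 23.1 and 30.7 FPKM at 21 DAS. It was the only locus of the 90 called lower as deposited, with a difference of -0.58 ± 0.05 (adjusted p = 7.46e-12), and -0.98 after rescaling. Its paralog CRS2B stood at 12.1 FPKM at 35 DAS and 12.3 FPKM at 21 DAS (-0.07 ± 0.07, not called), and CRS1 at 7.29 FPKM at 35 DAS and 6.03 FPKM at 21 DAS (0.24 ± 0.06). All 3 were among the 15 of the 90 loci lower after rescaling, at -0.98 for CRS2A, -0.46 for CRS2B and -0.13 for CRS1. On both scales CRS1 lay within the range of nuclear loci such as MOS4. The photosynthesis loci named above moved in the same direction, and their part in this was not tested.

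Every one of the 35 DAS libraries lay above every 21 DAS library in 6 of the 90 loci, against 7.56% of all loci. These were RS2Z33, RS41, SNRNP31, U2AF65B, LIS and SEN1. None lay wholly below, against 3.75% of all loci. Of the 6 loci, all but U2AF65B overlap loci on the other strand, as do 30 of the 90 in all. The overlap ranges from 82 bases in LIS to 1083 in SNRNP31. Whether reads were counted by strand is not stated, and the part of overlap in the separation was not tested.

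At single times the number of loci called was smallest at ZT13 as deposited and at ZT5 after rescaling. In order of time 69 loci were called at ZT1 (70.5% of all loci), 75 at ZT5 (63.5%), 80 at ZT9 (69.9%) and then 58 (57.7%), 67 (64.4%) and 75 (71.4%) at the last 3 times. After rescaling, 40 (60.1% of all loci), 34 (50.6%), 41 (57.2%), 42 (51.8%), 36 (54.9%) and 51 (57.5%) were called, in the same order. Median differences of the 90 loci were 0.64, 0.55, 0.70, 0.39, 0.49 and 0.70 from ZT1 to ZT21, beside 0.45, 0.37, 0.43, 0.24, 0.33 and 0.45 over all loci, and ZT13 was lowest in both. After rescaling the medians of the 90 were 0.13, 0.18, 0.24, 0.15, 0.15 and 0.25, beside 0.01, 0.03, 0.03, 0.03, 0.03 and 0.04 over all loci, and ZT1 was lowest in both. Without the ZT13 library that stood apart, 48 loci were called at ZT13.

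The extremes at each time fell on few genes. SEN1 was highest at ZT1, with 7.59, 6.97 and 10.4 FPKM at 35 DAS and 1.28, 2.10 and 1.35 FPKM at 21 DAS, a difference of 1.85 ± 0.26 (adjusted p = 6.48e-07, rescaled 1.48). It was also highest at ZT13 (1.42) and ZT17 (1.35). SR34B was highest at ZT21, with 14.5, 9.68 and 13.1 FPKM at 35 DAS and 2.58, 4.46 and 3.37 FPKM at 21 DAS (1.59 ± 0.21, rescaled 1.16), and at ZT5 (1.34). AT3G07590 was highest at ZT9, with 24.04, 13.9 and 27.4 FPKM at 35 DAS and 4.29, 5.45 and 4.08 FPKM at 21 DAS (1.98 ± 0.22, rescaled 1.55). CRS2A was lowest at every time but ZT5, where its difference of -0.21 was not called as deposited. At ZT1 CRS2A had 12.4, 10.9 and 10.9 FPKM at 35 DAS and 20.96, 20.4 and 22.4 FPKM at 21 DAS (-0.84 ± 0.12, rescaled -1.36). At ZT5 the smallest called difference was that of SR34A at 0.25, which was -0.16 after rescaling.

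The age effect averaged over ZT17 and ZT21, at night, differed from that by day (ZT1 to ZT13) in 19 of the 90 loci, against 15.8% of all loci. It was larger at night in 8 (6.46% of all loci) and smaller at night in 11 (9.3%), and 18 of the 19 kept the call and the sign after rescaling, which called 16.7% of all loci. These calls are fragile: without batch number 1 of every group 2 loci were called, 1 of them among the 19, without number 2 there were 13, of which 10 were among the 19, and without number 3 there were 4, all among the 19.

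Sm ring proteins made up 7 of the 11 loci with a smaller age effect at night, and no Sm protein had a larger one. They were SNRNP-G, AT2G18740, SMD3A, RUXF, AT3G62840, AT4G02840 and SMB. In the dark at ZT17, SNRNP-G had 109.9, 122 and 146 FPKM at 35 DAS and 94.9, 128 and 104 FPKM at 21 DAS, with overlap. In the light at ZT9 it had 163, 102 and 124 FPKM at 35 DAS and 54.6, 56.3 and 53.01 FPKM at 21 DAS, without overlap. The night minus day difference was -0.54 ± 0.13 (adjusted p = 0.00759, rescaled -0.53). AT2G18740 had 63.9, 70.02 and 80.3 FPKM at 35 DAS and 43.5, 64.03 and 50.8 FPKM at 21 DAS at ZT17, and 45.6, 47.9 and 49.1 FPKM at 35 DAS and 17.7, 21.3 and 20.3 FPKM at 21 DAS at ZT5, a night minus day difference of -0.47 ± 0.15. SMD3A gave -0.39 ± 0.10. For SMB the mean age effect was -0.20 at night and 0.13 by day. No SR protein of 20 was called in either direction. The other 4 loci with a smaller effect at night were U1A, U2A', AT2G14285 (-0.48 ± 0.12) and the Prp18 family protein AT1G03140 (-0.38 ± 0.12).

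The 8 loci with a larger effect at night came from several complexes. AT2G42270, annotated as a U5 helicase, had 9.40, 5.41 and 5.93 FPKM at 35 DAS and 2.40, 3.57 and 2.52 FPKM at 21 DAS at ZT21, and 3.67, 2.75 and 2.21 FPKM at 35 DAS and 3.62, 3.48 and 3.14 FPKM at 21 DAS at ZT13, where the ages overlapped. Its night minus day difference was 0.73 ± 0.20 (adjusted p = 0.0132). CRS1 had 10.02, 11.4 and 9.13 FPKM at 35 DAS and 5.14, 5.35 and 6.18 FPKM at 21 DAS at ZT17. At ZT5 it had 8.26, 10.1 and 10.3 FPKM at 35 DAS and 8.70, 9.45 and 8.52 FPKM at 21 DAS. The ages were thus apart in the dark and together in the light, and the difference was 0.62 ± 0.12 (adjusted p = 0.000706). AT4G36980 (0.56 ± 0.18), SMP1 (0.51 ± 0.15) and SNRNP48 (0.49 ± 0.17) followed, and both U2AF large subunits were called, U2AF65B at 0.40 ± 0.11 and U2AF65A at 0.37 ± 0.13. The last of the 8 was AT5G38600 at 0.31 ± 0.09. SNRNP48 was not called after rescaling or with the batch number as a block (adjusted p = 0.0537 with the block).

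**Figure D2:**
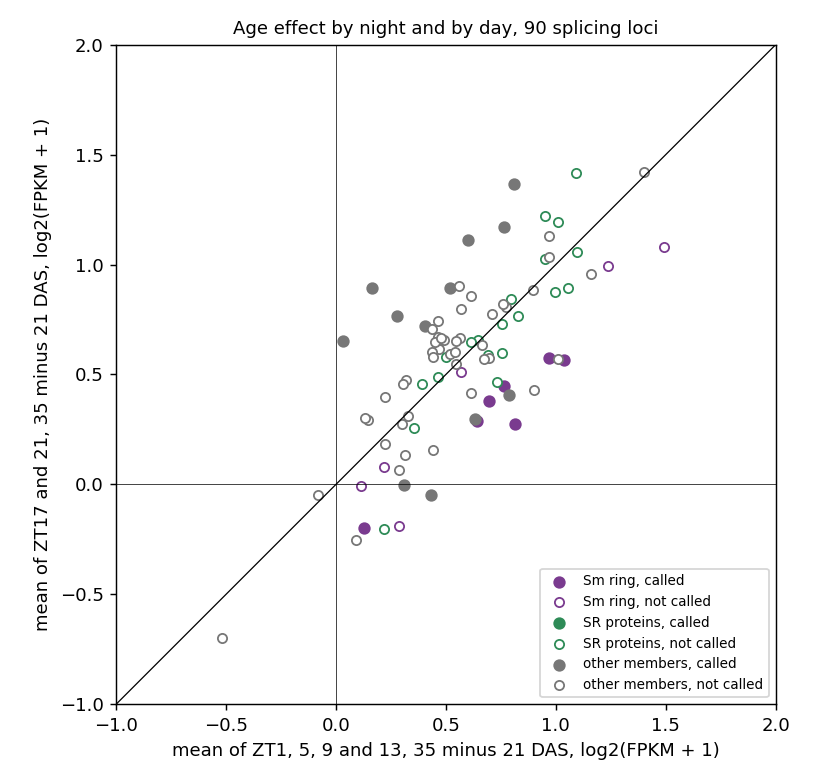
Age effect (35 minus 21 DAS, log2(FPKM + 1)) averaged over ZT17 and ZT21 on the vertical axis and over ZT1, ZT5, ZT9 and ZT13 on the horizontal axis, 1 point per splicing locus, with equal effects on the diagonal. Filled points were called in the test of night minus day (19 of 90); the 7 filled Sm ring points lie below the diagonal, and all 20 SR protein points are open.

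Daily rhythms of splicing factor transcripts were shallow. A 24-h cosine and sine were fitted to the 6 means of each age, and a locus was called rhythmic when its adjusted p was under 0.05 and its amplitude reached 0.5 on the log2(FPKM + 1) scale. This held for 1 of 90 loci at 35 DAS (17.3% of all loci) and 8 at 21 DAS (26.8%), and after rescaling for 0 at 35 DAS (15.3% of all loci) and 5 at 21 DAS (23.4%). With no minimum of amplitude 65 were called at 35 DAS (64% of all loci) and 74 at 21 DAS (74.9%), and 60 at both ages. After rescaling these were 44 at 35 DAS (54.3% of all loci) and 52 at 21 DAS (68.8%), so that the share of the 90 loci lay above that of all loci as deposited and below it after rescaling. The median amplitude was 0.21 at 35 DAS and 0.27 at 21 DAS, beside 0.25 and 0.33 over all loci, and after rescaling 0.15 at 35 DAS and 0.18 at 21 DAS, beside 0.22 and 0.28. It was larger at 21 DAS in 65 of the 90, beside 68.1% of all loci.

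The Sm ring held 5 of the 8 loci rhythmic at 21 DAS as deposited, and 2 of the 5 after rescaling. Its median amplitude at 21 DAS was 0.43 as deposited and 0.22 rescaled. The amplitudes that follow are as deposited unless marked. AT3G07590 had an amplitude of 0.39 at 35 DAS and 0.75 at 21 DAS, and AT2G18740 0.36 at 35 DAS and 0.73 at 21 DAS. SNRNP25 had the largest amplitude at 21 DAS, with 0.46 at 35 DAS and 0.89 at 21 DAS (adjusted p = 1.5e-09 and rescaled 0.76 at 21 DAS). At 35 DAS its libraries had 4.78, 4.01 and 3.26 FPKM at ZT5 and 7.36, 14.02 and 8.05 FPKM at ZT13, and at 21 DAS they had 0.639, 1.90 and 1.88 FPKM at ZT5 and 6.06, 7.39 and 7.39 FPKM at ZT13, with no overlap of the times at either age. SNRNP65 was out of step with these loci, with a fitted peak 3.94 h after lights on at 21 DAS, where it had 10.02 ± 1.21 FPKM at ZT5 and 3.91 ± 0.510 FPKM at ZT17 (SD, n = 3).

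RS40 was highest at ZT9 at both ages. Its amplitude was 0.39 at 35 DAS, short of the minimum, and 0.63 at 21 DAS, and its rhythm was called different between the ages as deposited (adjusted p = 0.0133) but not after rescaling (adjusted p = 0.108). At 35 DAS it had 20.6, 26.8 and 22.2 FPKM at ZT1 and 75.9, 73.4 and 73.6 FPKM at ZT9. At 21 DAS it had 9.48, 8.05 and 7.41 FPKM at ZT1 and 46.7, 45.7 and 44.1 FPKM at ZT9. The 3 libraries of each group lay close together.

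U2AF35B was the locus rhythmic at 35 DAS, with an amplitude of 0.57 (adjusted p = 1.84e-09, rescaled 0.44). At 21 DAS its amplitude rounded to 0.50 but fell just short of the minimum. It had 33.9, 36.98 and 40.97 FPKM at ZT1 and 101, 104 and 112 FPKM at ZT21 at 35 DAS, and 14.3, 15.1 and 14.7 FPKM at ZT1 and 39.6, 37.6 and 44.5 FPKM at ZT21 at 21 DAS. Its mean was highest at ZT21 and among the lowest at ZT1 at both ages. The mean of its paralog U2AF35A was likewise highest at ZT21, with amplitudes of 0.48 at 35 DAS and 0.44 at 21 DAS. After SNRNP25, AT4G30330 at 0.45 and PRP38 at 0.41 came next at 35 DAS.

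**Figure D3:**
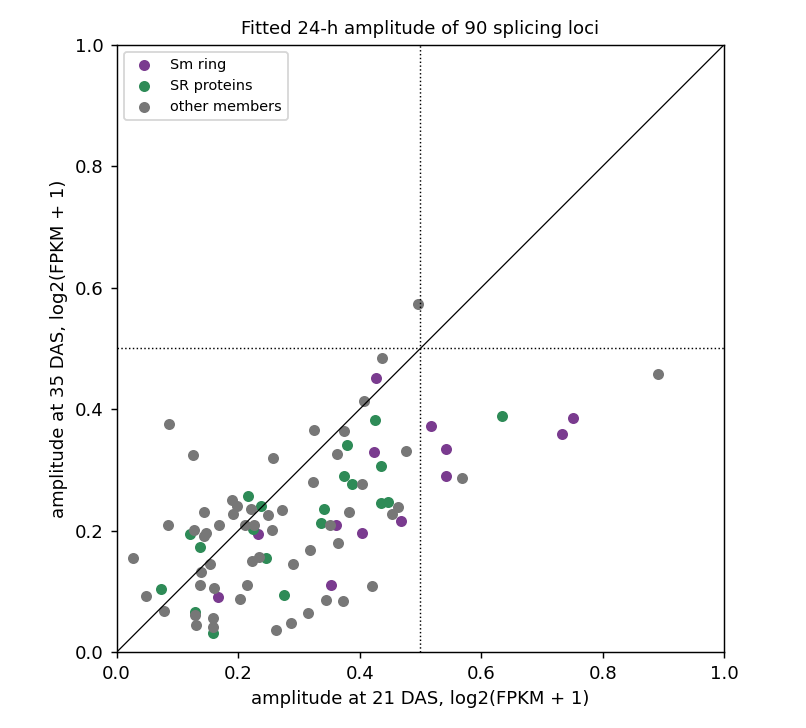
Fitted 24-h amplitude in log2(FPKM + 1) of each of the 90 splicing loci at 35 DAS (vertical axis) and at 21 DAS (horizontal axis), with equal amplitudes on the diagonal and the minimum of 0.5 dotted. More points lie below the diagonal than above it (65 of 90), and U2AF35B is the 1 point above the horizontal dotted line.

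As deposited, fitted peaks gathered late in the day and early in the night. At 35 DAS 54 of the 65 loci with a called rhythm peaked between ZT12 and ZT20, and at 21 DAS 70 of 74. At 35 DAS 27.7% peaked from ZT12 to ZT16 and 55.4% from ZT16 to ZT20, beside 18.6% and 40.4% of all rhythmic loci. At 21 DAS the shares were 48.6% and 45.9%, beside 32.9% and 31.8%. This concentration was weaker after rescaling, where 18.2% and 20.5% at 35 DAS and 23.1% and 32.7% at 21 DAS fell in these windows, beside 11.5% and 20.3% of all rhythmic loci at 35 DAS and 15.4% and 18.1% at 21 DAS. The median fitted peak was 17.5 h after lights on at 35 DAS and 15.9 h at 21 DAS, each over the loci called at that age. Over the 60 loci called at both ages the median shift was 0.433 h later at 35 DAS, and the peak was later in 33 of the 60.

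The rhythm itself differed between ages in 22 of the 90 loci (27.1% of all loci), and in 18 after rescaling (25.1%). The helicase AT2G47250 had the smallest p. At ZT1 it had 25.3, 23.05 and 22.9 FPKM at 35 DAS and 11.6, 13.01 and 13.1 FPKM at 21 DAS, while at ZT13 the ages were nearly level, with 27.8, 26.9 and 25.7 FPKM at 35 DAS and 26.8, 26.1 and 23.7 FPKM at 21 DAS. SR30 had its fitted peak 19.1 h after lights on at 35 DAS and 14.2 h at 21 DAS. At ZT1 it had 62.9, 64.7 and 48.3 FPKM at 35 DAS and 17.2, 21.2 and 17.6 FPKM at 21 DAS, without overlap, and at ZT5 36.5, 37.2 and 40.8 FPKM at 35 DAS and 21.5, 24.4 and 22.6 FPKM at 21 DAS. SR45A behaved alike, with peaks at 20.8 h at 35 DAS and 14.9 h at 21 DAS. It had 50.2, 54.5 and 42.9 FPKM at 35 DAS and 14.5, 14.5 and 10.97 FPKM at 21 DAS at ZT1, whereas at ZT13 it had 33.5, 52.9 and 38.3 FPKM at 35 DAS and 27.6, 30.8 and 28.5 FPKM at 21 DAS. AT3G62840, SMB and CRS1 were the other 3 of the 6 with the smallest p. The count fell to between 5 and 11 when 1 batch number was left out.

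**Figure D4:**
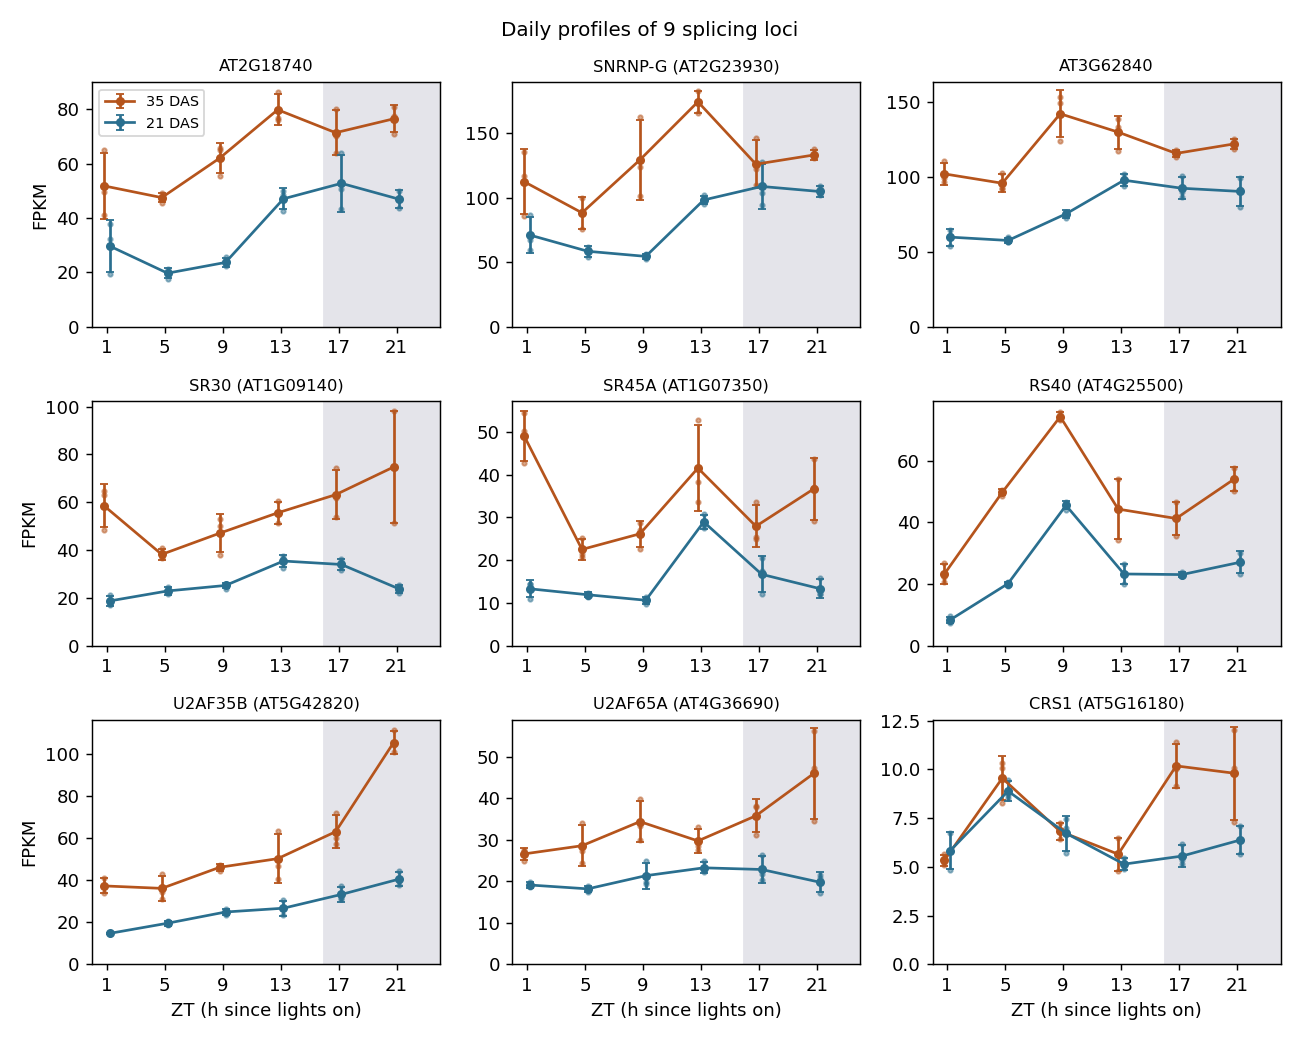
FPKM of 9 splicing loci at 6 times of day, with lines and bars for the mean and SD of 3 libraries, small points for the libraries, 35 DAS in brown, 21 DAS in blue and the dark period shaded. SR30 and SR45A separate the ages most at ZT1 and ZT21, the Sm ring loci AT2G18740 and SNRNP-G separate them most by day, and CRS1 separates them in the dark.

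Most transcript forms were higher at 35 DAS. Of the 139 transcripts 112 were higher at 35 DAS (59.1% of all transcripts tested) and 3 lower (20.5%), and 81 (38.3%) and 21 (33.7%) after rescaling. The transcript values in the table reach far below the worth of a fragment, so they are estimates that share out reads between forms. SEN1.2 had the largest log2 difference, 1.59 ± 0.18 (rescaled 1.27), with 3.60, 10.2 and 15.2 FPKM at 35 DAS and 0.000210, 3.20 and 5.11 FPKM at 21 DAS. RS40.3 came next at 1.44 ± 0.10 (rescaled 1.09), with 2.46, 14.5 and 23.5 FPKM at 35 DAS and 0.413, 4.59 and 11.3 FPKM at 21 DAS. The 3 lower transcripts were SMB.3 (-0.96 ± 0.32), CRS2A.2 (-0.69 ± 0.08) and CRS2B.2 (-0.44 ± 0.12).

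The share that a transcript took of its locus could be tested for 94 transcripts of 45 loci. The share was called different for 43 of them (41.4% of all tested), 23 higher (21.7%) and 20 lower (19.7%) at 35 DAS, and 33 of these were among the 39 called after rescaling (36.1%). In 8 of the 43 the mean share moved by less than 1 percentage point. These forms took either nearly the whole of their locus or a few percent of it. In 23 the share was called and moved by 5 points or more, in 14 loci (15% of all tested), and in 10 by 10 points or more (8.25%). A fit to the percentages themselves called 23 of the 94 (13.8% of all tested), 22 of them among the 43. As shares within a locus are not independent, 13 loci had forms called in opposite directions.

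SC35 had the largest change of share in percentage points. SC35.1, which removes an intron of 190 bases after the stop codon that SC35.2 keeps, had a share of 35.1, 50.6 and 61.4% at 35 DAS and 9.59, 30.3 and 52.2% at 21 DAS (lowest, median and highest of 18). The means were 50.7 ± 6.36% at 35 DAS and 28.9 ± 12.9% at 21 DAS (SD, n = 18), a log2 ratio difference of 1.29 ± 0.17 (adjusted p = 5.9e-07, rescaled 1.32). At ZT1 it was 47.6 ± 2.88% at 35 DAS and 11.4 ± 1.66% at 21 DAS, and at ZT21 52.5 ± 6.82% at 35 DAS and 39.4 ± 18.6% at 21 DAS, where the SDs overlapped. Both forms encode 303 residues. As deposited, SC35.1 rose by 1.41 ± 0.12 in level, and SC35.2 was not called at 0.12 ± 0.07. Among the 94 transcripts, 4 had a rhythmic share at 35 DAS (5.44% of all tested) and 8 at 21 DAS (12.6%), and after rescaling 2 at 35 DAS (4.11%) and 8 at 21 DAS (11.3%). SC35.1 was among the 8 (amplitude 0.62 of the log2 ratio, adjusted p = 0.0327), as was RS41.4, and RS40.1 was among the 4. These calls were few under other settings, with 1 at 35 DAS and 2 at 21 DAS at a pseudocount of 0.1, and 0 to 3 at 35 DAS and 2 to 5 at 21 DAS when 1 batch number was left out.

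AT1G14650 changed by nearly as much in percentage points and by more in the log2 ratio. AT1G14650.2 took 34.95 ± 8.48% at 35 DAS and 13.3 ± 4.96% at 21 DAS (log2 ratio difference 1.47 ± 0.13, adjusted p = 6.25e-10), and the ages overlapped only at the edge of the range, with 23.7% as the lowest at 35 DAS and 23.9% as the highest at 21 DAS. Of its forms AT1G14650.2 alone was higher in level as deposited, at 1.36 ± 0.10, and AT1G14650.1 was not called at -0.12 ± 0.06.

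SR45A.2, the form with the added exon, took the larger part of its locus at every time at 35 DAS and at every time but ZT1 at 21 DAS, where it took 49.03 ± 4.37%. Its share was 79.98 ± 8.64% at 35 DAS and 64.4 ± 10.99% at 21 DAS (log2 ratio difference 1.15 ± 0.16, adjusted p = 1.37e-06). In level SR45A.2 rose by 1.36 ± 0.09, with 17.3, 23.8 and 46.2 FPKM at 35 DAS and 5.70, 8.55 and 22.04 FPKM at 21 DAS. SR45A.1, the form that encodes the whole protein, was not called, with 1.38, 6.30 and 17.8 FPKM at 35 DAS and 1.90, 5.16 and 9.50 FPKM at 21 DAS (0.21 ± 0.11). Of the pair, the form with the early stop was called as deposited and the form for the whole protein was not. Rescaled levels of these forms are not given here.

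The 3 forms with the upstream 3′ sites shown above also gained share. SR30.2 took 48.03 ± 11.2% at 35 DAS and 38.3 ± 12.4% at 21 DAS (adjusted p = 0.00326), and both forms rose in level, SR30.2 by 1.33 ± 0.10 and SR30.1 by 0.78 ± 0.08. SR34.2 took 20.7 ± 6.91% at 35 DAS and 11.7 ± 2.80% at 21 DAS (adjusted p = 4.99e-05). U2AF65A.3 took 31.8 ± 10.8% at 35 DAS and 22.2 ± 9.62% at 21 DAS (adjusted p = 0.00133), and its share was lowest at ZT1 at both ages, at 14.5 ± 3.30% at 35 DAS and 5.97 ± 5.47% at 21 DAS. The ranges of the ages overlapped in all 3. SR34.3 and RS2Z33.3 also use a 3′ site upstream of that in SR34.1 or RS2Z33.1. Neither was among the forms called with a move of 5 percentage points or more.

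RS40.3 and RS41.4, the forms with the matching added exons, gained share in both paralogs. RS40.3 took 29.9 ± 8.64% at 35 DAS and 19.2 ± 7.65% at 21 DAS (adjusted p = 0.000247), and RS41.4 20.3 ± 6.16% at 35 DAS and 15.6 ± 5.63% at 21 DAS (adjusted p = 0.00627). The forms without the exon lost share, RS40.1 at 54.8 ± 11.5% at 35 DAS and 63.1 ± 11.2% at 21 DAS, and RS41.1 at 73.3 ± 4.51% at 35 DAS and 80.3 ± 5.17% at 21 DAS. RS40.3 was lowest at ZT1 at both ages, at 17.6 ± 7.37% at 35 DAS and 10.3 ± 4.64% at 21 DAS, and highest at ZT17, at 41.8 ± 7.01% at 35 DAS and 27.7 ± 6.53% at 21 DAS. RS40 and RS41 each overlap a locus on the other strand, RS41 over 656 bases. Further forms moved less evenly: SEN1.2 took 86.1 ± 9.76% at 35 DAS and 72.3 ± 31.9% at 21 DAS, and was not called in the fit to percentages (adjusted p = 0.253), and SMB.3 took 9.78 ± 8.89% at 35 DAS and 20.99 ± 13.5% at 21 DAS, with values near 0 in single libraries at both ages.

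**Figure D5:**
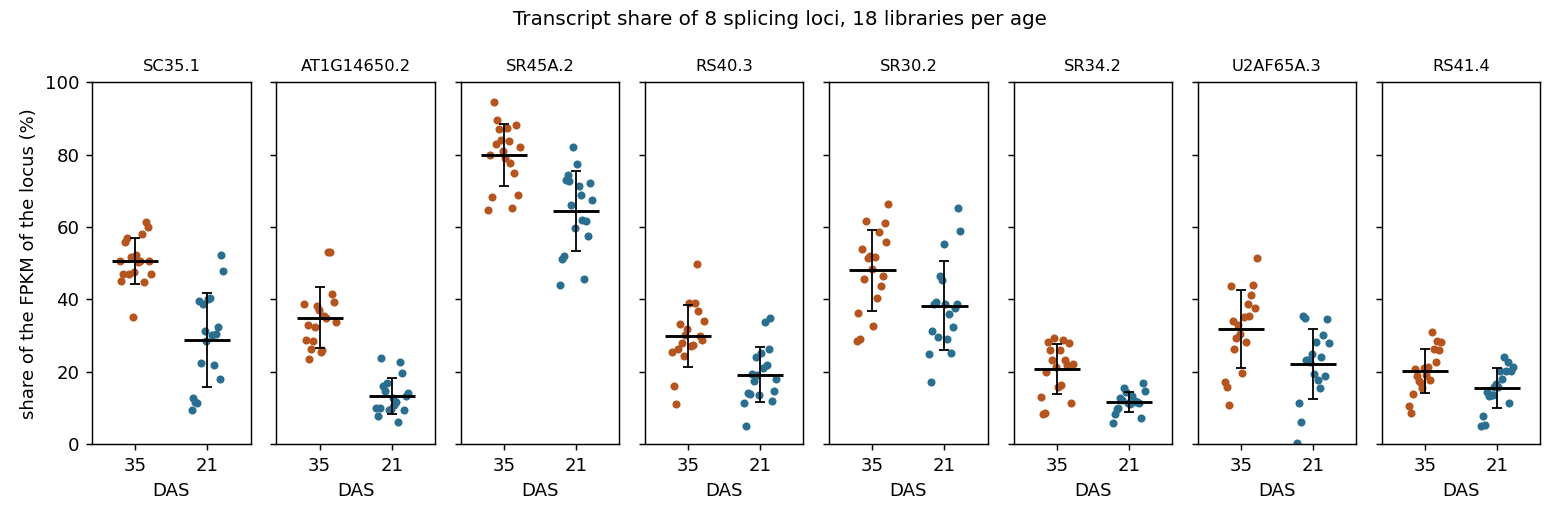
Share of the FPKM of the locus, in percent, taken by 1 transcript of each of 8 splicing loci in every library, 18 at 35 DAS (brown, left) and 18 at 21 DAS (blue, right), with the mean and SD in black. SC35.1 and AT1G14650.2 show the widest gaps, with means of 50.7 and 35.0% at 35 DAS and 28.9 and 13.3% at 21 DAS, and all 8 means are higher at 35 DAS.

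A stop codon more than 50 bases before the last exon junction is a known mark for nonsense-mediated decay in plants. Of the 94 transcripts with a tested share, 17 from 12 loci have such a stop in the RefSeq models. Among forms with a higher share, it lay at 359 bases in SR30.2, 403 in SR34.2, 590 in SR45A.2, 59 in U2AF65A.3 and 116 in SC35.1. SMB.3, with a lower share, had it at 278 bases. U1-70K.2 at 1088, SR34B.1 at 757 and SR34B.2 at 447 were not called. Over all 17, the share was higher at 35 DAS in 6 and lower in 2. Among 626 such transcripts of all loci, 19.5% were higher and 17.9% lower. The 17 hold both AT1G14650.2, counted as higher, and AT1G14650.1, counted as lower, whose shares are not independent. The transcript behind the FPKM of AT1G14650.1 ends before that junction, and that of AT2G42510.3 ends before the RefSeq stop. Both counts of the 17 were also 6 and 2 after rescaling, beside 21.1% higher and 11.5% lower over all loci, and in the fit to percentages, beside 68 higher and 36 lower of 620 over all loci. Among the other 77 transcripts 17 were higher and 18 lower, beside 21.8% and 19.8% of such transcripts of all loci, and in the fit to percentages 5 were higher and 10 lower. The 77 hold RS40.3 and RS41.4, placed there by the stop of the coding region annotated from the added exon. The 4 measured factors of the decay pathway itself were higher at 35 DAS as deposited, and 2 of them after rescaling. UPF3 averaged 31.3 FPKM at 35 DAS and 15.9 FPKM at 21 DAS (0.95 ± 0.04, rescaled 0.55), and UPF1 35.4 FPKM at 35 DAS and 24.3 FPKM at 21 DAS (0.53 ± 0.06, rescaled 0.13 and not called). The part of decay in the shares was not tested.

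Kinases that phosphorylate SR proteins were higher at 35 DAS in 5 of 5 as deposited, and 3 were higher and 1 lower after rescaling. SRPK1 averaged 8.67 FPKM at 35 DAS and 2.22 FPKM at 21 DAS (1.55 ± 0.06, rescaled 1.21), a larger difference than in any of the 90 loci on either scale. AFC2, a LAMMER-type kinase, averaged 52.6 FPKM at 35 DAS and 27.1 FPKM at 21 DAS (0.94 ± 0.05). Among 8 splicing genes that the literature ties to the clock, 1 of them, AT1G54380, among the 90, 7 were higher as deposited and 6 after rescaling, with 1 lower. The methyltransferase PRMT5, which modifies Sm proteins, averaged 17.2 FPKM at 35 DAS and 10.9 FPKM at 21 DAS (0.66 ± 0.05, rescaled 0.27). SKIP averaged 51.8 FPKM at 35 DAS and 34.7 FPKM at 21 DAS (0.56 ± 0.04, rescaled 0.15). SICKLE averaged 7.64 FPKM at 35 DAS and 7.34 FPKM at 21 DAS (0.07 ± 0.05, not called). After rescaling SICKLE was called lower at -0.30. Of 3 polypyrimidine tract binding proteins, PTB2 rose by 0.59 ± 0.04 (rescaled 0.19) and PTB1 by 0.36 ± 0.05 (rescaled -0.03 and not called), and PTB3 was at 0.01 ± 0.03 and not called (rescaled -0.40 and called lower).

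Promoter letters, which the annotation rule did not use, were searched in the 90 loci. In the 250 bases before the RefSeq start, the site II letters TGGGCC, searched on both strands with matches allowed to overlap, occurred in 46 of 90 loci (51.1%), against 17.0% of 18674 loci of the whole series. Counts by role were 10 of 20 SR proteins and 8 of 13 Sm ring loci. The telo box letters AAACCCTA occurred in 4.44% of the 90, against 3.6% of all. The evening element letters AAAATATCT occurred in 1.11%, against 2.6%, and the G box letters CACGTG in 5.56%, against 7.36%. Median age differences were 0.64 in the 46 loci with site II letters and 0.53 in the 44 without, beside 0.42 and 0.38 over all loci. Both examples have 3 matches, in capitals: U2A' on the minus strand at chr1:3161693-3161942, and SMD3A on the plus strand at chr1:28625621-28625870, where a pair of matches on opposite strands overlap.
U2A' promoter: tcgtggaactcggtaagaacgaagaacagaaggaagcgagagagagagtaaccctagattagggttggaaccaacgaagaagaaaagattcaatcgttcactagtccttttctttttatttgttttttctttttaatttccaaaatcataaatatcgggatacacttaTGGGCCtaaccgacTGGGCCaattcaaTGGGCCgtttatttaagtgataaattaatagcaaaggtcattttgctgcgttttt
SMD3A promoter: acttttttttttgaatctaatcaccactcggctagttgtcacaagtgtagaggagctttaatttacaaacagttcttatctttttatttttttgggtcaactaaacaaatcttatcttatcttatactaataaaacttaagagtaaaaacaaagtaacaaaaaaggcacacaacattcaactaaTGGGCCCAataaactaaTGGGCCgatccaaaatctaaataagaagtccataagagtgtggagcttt
A match in letters is a description of the sequence, and binding was not measured here.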

How the data were processed

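The labels give 36 libraries of polyadenylated RNA in 12 groups, and the deposited table holds FPKM values per transcript for each library. Per the submitters' processing notes, STAR 2.3.0e, HTSeq, edgeR 3.12.1 and TAIR10 were used, with no role stated. How the deposited FPKM were computed, and whether strand was used, is not given in the sources used here. No reads were counted anew and the read depth is unknown, so counting intervals are not given.

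Transcripts were summed per locus, and of 33279 loci the 18729 were kept that reached 1 FPKM in 3 or more libraries. Values were tested as log2(FPKM + 1), a scale that understates the change of low loci. limma 3.58.1 in R 4.3.3 fitted 12 group means with a trended variance, adjusted by Benjamini-Hochberg over all kept features at 0.05. All adjusted p-values come from these fits. The share of a transcript was tested as the log2 ratio of its FPKM + 1 to that of the other forms, over 10021 transcripts. Rescaling divided each library by its median ratio to the geometric mean over 16823 loci. Tables and figures were made with Python 3.11.15, pandas 2.3.3 and matplotlib 3.10.9, and the fits were tested on simulated data.

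The splicing loci, the role lists and the lists outside them were chosen with earlier results of these data known, from annotation and general knowledge. Named loci are the 10 highest and 10 lowest age differences called as deposited, with the same direction after rescaling. These had an average level of at least 5 FPKM and the same sign at each time. Added to these were the extremes at each time and the 5 highest and 5 lowest night minus day. Rhythms were named by the 6 largest amplitudes and 6 smallest p of rhythm difference. The 8 highest and 8 lowest transcripts, the 12 largest share changes, and the SR and clock lists were named too. Other loci named were chosen after their values were seen.

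The labels mark the replicate number as a batch. Deviations of libraries with the same number had a mean correlation of 0.00856 (pairs from -0.473 to 0.582), against -0.00445 for different numbers, so the numbers were used as a block only in an alternative fit. Sequences were read from RefSeq TAIR10.1, where all 90 loci overlap a locus of the same name on the same strand, 1027 of 1028 introns have GT or GC and AG ends, and both ends of the transcript are as in the table for 53 of 158 models. Added exons and stop codons are thus those of RefSeq models and may differ from those used for the FPKM.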

Additional observations from a re-analysis of the deposited data

Results flagged for a closer look

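In 16 results the effect differed between conditions by the limma test of the difference itself. For 10 loci the age effect (35 minus 21 DAS, log2) differed between night and day. It was larger at night in AT2G42270 by 0.73 (adjusted p = 0.0132), CRS1 by 0.62 (adjusted p = 0.000706), AT4G36980 by 0.56 (adjusted p = 0.0364), SMP1 by 0.51 (adjusted p = 0.0219) and SNRNP48 by 0.49 (adjusted p = 0.0435). Of these 5, SNRNP48 was not called after rescaling (0.45, adjusted p = 0.0531).

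The age effect was smaller at night in SNRNP-G at -0.54 (adjusted p = 0.00759), AT2G14285 at -0.48 (adjusted p = 0.00644), AT2G18740 at -0.47 (adjusted p = 0.0274), SMD3A at -0.39 (adjusted p = 0.00926) and AT1G03140 at -0.38 (adjusted p = 0.0252). All 5 kept the sign and the call after rescaling. Of these, SNRNP-G, AT2G18740 and SMD3A are Sm ring proteins, and AT1G03140 is annotated to the Prp18 family, which acts at the second step of splicing in yeast.

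For 6 loci the 24-h rhythm differed between the ages. The size given is the amplitude of the difference of the fitted curves. It was 0.29 in the helicase AT2G47250 (adjusted p = 5.65e-05), 0.48 in SR30 (adjusted p = 0.00118), 0.27 in AT3G62840 (adjusted p = 0.00138), 0.49 in SR45A (adjusted p = 0.00204), 0.31 in SMB (adjusted p = 0.00328) and 0.36 in CRS1 (adjusted p = 0.00457). All 6 stayed called after rescaling, with sizes between 0.19 in AT2G47250 and 0.41 in SR30 and CRS1.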

How the results depend on the processing

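Rescaling moved the age calls most. After it 15 loci were lower at 35 DAS, and 40, 34, 41 and 36 were called at ZT1, ZT5, ZT9 and ZT17. Loci rhythmic at 35 DAS fell to 0 and at 21 DAS to 5, transcripts lower at 35 DAS numbered 21, and rhythmic shares at 35 DAS numbered 2. Single differences that changed sign were those of the SR protein SR45 (-0.0823), SR34A at ZT5 (-0.16), AT3G11500.1 (-0.24), AT5G51300.1 (-0.20), U1A.1 (-0.20), MOS4.1 (-0.20) and AT4G03120.1 (-0.18). With no minimum of amplitude, 65 loci were rhythmic at 35 DAS and 74 at 21 DAS, and 10 and 13 shares. A pseudocount of 0.1 gave 2 rhythmic loci at 35 DAS and 13 at 21 DAS, 27 changed shares, and 1 and 2 rhythmic shares. With a mean of 5 FPKM or more, 1 transcript was lower, 28 shares changed, and 2 and 5 were rhythmic. With no filter besides 3 values above 0, 14 shares were rhythmic at 21 DAS. The cause of these moves was not tested.

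Leaving out 1 batch number in turn gave 80 to 83 loci higher and 1 lower at 35 DAS, and 61 to 68, 60 to 66, 68 to 74, 39 to 53, 55 to 58 and 67 to 73 called from ZT1 to ZT21. It gave 2 to 13 loci called for night minus day, 1 to 3 rhythmic at 35 DAS, 10 to 11 at 21 DAS and 5 to 11 with a rhythm difference. It gave 106 to 109 transcripts higher and 1 to 4 lower, 32 to 38 changed shares, and 0 to 3 rhythmic shares at 35 DAS and 2 to 5 at 21 DAS. With the batch number as a replicate block, 83 loci were higher and 1 lower, 20 were called for night minus day (18 of them as in the fit without it), 22 had a rhythm difference and 43 shares changed (42 shared). Of the single results the block ended the call of SNRNP48 at night alone.

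Both further settings were chosen after seeing the data. The share in percent called 23 transcripts, and without the second ZT13 library at 35 DAS 83 loci were higher, 48 were called at ZT13, 20 for night minus day and 25 for a rhythm difference, and 4 shares were rhythmic at 35 DAS and 8 at 21 DAS. The depth of the libraries is unknown, and low transcripts are estimates.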
